A study of Homo sapiens with 4 samples.

Results

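The epithelial-mesenchymal transition (EMT) genes are 10 genes chosen by symbol: the epithelial adhesion genes CDH1 and EPCAM, the mesenchymal genes CDH2, VIM and FN1, and the transcription factors ZEB1, ZEB2, SNAI1, SNAI2 and TWIST1. They were looked up, by the Ensembl identifiers that carry those symbols, among the 27629 genes listed in at least one table of the series. 8 of the 10 had a value in all 4 libraries, EPCAM had a value in 1 library, and CDH1 was listed in none. Total RNA was taken from UM-UC-3 cells, an established line of human bladder cancer, 48 h after the cells received siRNA at 75 nM. There was 1 library for each of 4 conditions: control siRNA, si-hnRNPK, si-PTBP1 and si-lncRNA-LBCS. Each knockdown used 2 siRNAs against one RNA, and all 4 conditions used the same transfection reagent. The control siRNA is the reference for the 3 comparisons, which therefore share 1 library. With no second culture of any condition, no difference below has a replicate check.

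In EMT, epithelial cells loosen their junctions and take on the shape and movement of mesenchymal cells. E-cadherin (CDH1) holds epithelial cells together, and EpCAM (EPCAM) is a surface glycoprotein of epithelia. N-cadherin (CDH2), the intermediate filament protein vimentin (VIM) and the matrix glycoprotein fibronectin (FN1) mark the mesenchymal state. The zinc finger repressors ZEB1, ZEB2, SNAI1 (Snail) and SNAI2 (Slug) bind E-boxes, short sites in the promoters of epithelial genes such as CDH1, and TWIST1 is a basic helix-loop-helix factor of the same programme. hnRNPK and PTBP1 are RNA-binding proteins that prefer C-rich and pyrimidine-rich RNA, and PTBP1 is a regulator of alternative splicing.

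The siRNAs are shown because a short match of their guide strand to a 3′ UTR can touch a gene other than the target. The sense strands are given 5′ to 3′ with their overhang, and capitals mark bases 12 to 18, which have the same letters as the site that guide bases 2 to 8, the seed, would pair with.
control siRNA: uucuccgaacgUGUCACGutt
si-hnRNPK siRNA 1: ggguuguagagUGCAUAAatt
si-hnRNPK siRNA 2: gccuccaucuaGAAGAGAutt
si-PTBP1 siRNA 1: gccucaacgucAAGUACAatt
si-PTBP1 siRNA 2: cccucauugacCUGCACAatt
si-lncRNA-LBCS siRNA 1: gcugcucauuuGUCUGAUctt
si-lncRNA-LBCS siRNA 2: ggugguagucaACACAAAutt

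No annotated transcript of the 10 genes held the full 19 paired bases of any of these siRNAs. In the longest 3′ UTR of each gene, CDH1, VIM, SNAI1 and TWIST1 held no seed match. ZEB2, whose 3′ UTR is 5370 bases long, held 1 match to each of the 4 siRNAs of si-hnRNPK and si-lncRNA-LBCS. Of all 15066 listed genes with a 3′ UTR, 0.438% held all 4 matches, and of the 1112 genes with a 3′ UTR of at least 5000 bases, 4.50% did. The 4 ZEB2 sites are given with the seed match in capitals.
ZEB2, si-hnRNPK siRNA 1, 3′ UTR bases 3101 to 3107: acattagggcTGCATAAtcctctaact
ZEB2, si-hnRNPK siRNA 2, 3′ UTR bases 3444 to 3450: aaataactggGAAGAGAgatgcgtatc
ZEB2, si-lncRNA-LBCS siRNA 1, 3′ UTR bases 4996 to 5002: aattttttggGTCTGATgtttcagagg
ZEB2, si-lncRNA-LBCS siRNA 2, 3′ UTR bases 3799 to 3805: ctggatatacACACAAAcaagtgtgtg

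Other single matches were found in ZEB1 and EPCAM (si-lncRNA-LBCS siRNA 2), SNAI2 (si-hnRNPK siRNA 2), CDH2 (si-PTBP1 siRNA 1) and FN1 (si-PTBP1 siRNA 2). Matches to these 6 knockdown seeds are common, in 8.57% to 18.6% of all 3′ UTRs.

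Levels are CPM, in which the reads on a gene are divided by the size of its library, and 54301152 to 70232674 reads lay on listed genes. HNRNPK was 783.1 CPM in the control and 187.8 CPM in the si-hnRNPK library, which is 24.0% of the control, and PTBP1 went from 280.0 CPM to 89.7 CPM in the si-PTBP1 library, which is 32.0%. The gene that holds both si-lncRNA-LBCS siRNA sequences was not analysed here, so the label of that library was not checked, and it is called the LBCS-labelled library here. Each library had a row for 16 of 20 urothelial markers, though not the same 16, and 5 or 6 of them reached 1 CPM. They summed to 157.8 to 220.9 CPM, led by KRT18 in every library. Among the urothelial factors, GATA3 stayed at 0.06 to 0.32 CPM, while FOXA1 was 1.67 to 2.53 CPM. TP63 was 0.34 CPM in the control, 2.50 CPM in si-hnRNPK and 2.37 CPM in si-PTBP1. Markers of other cell types were low, with sums of 3.80 to 10.1 CPM for fibroblasts (highest in si-PTBP1), 0.81 to 3.43 CPM for white blood cells and 0.64 to 1.61 CPM for endothelium.

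All 8 genes with values in the 4 libraries were at 1 CPM or more in each of them, whereas EPCAM was seen once. EPCAM (ENSG00000119888) had 1 read, in the si-PTBP1 library, which is 0.0178 CPM. CDH1 (ENSG00000039068) had no row in any library, nor had EPCAM in the other libraries, so no level is given there. Comparing levels between genes as CPM per kilobase of exon in the control library, VIM stood at 454.3 and ranked 63rd of 24085 genes. ZEB1 followed at 14.4, CDH2 at 9.52, FN1 at 3.30, TWIST1 at 1.87, SNAI1 at 1.59, ZEB2 at 0.67 and SNAI2 at 0.50 CPM per kilobase. VIM was 31.6 times the next gene, whereas TWIST1 and SNAI1 differed by 1.17 times. ZEB2 and SNAI1 changed places when the length of the longest transcript was used (1.76 and 1.59 CPM per kilobase).

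**Figure D1:**
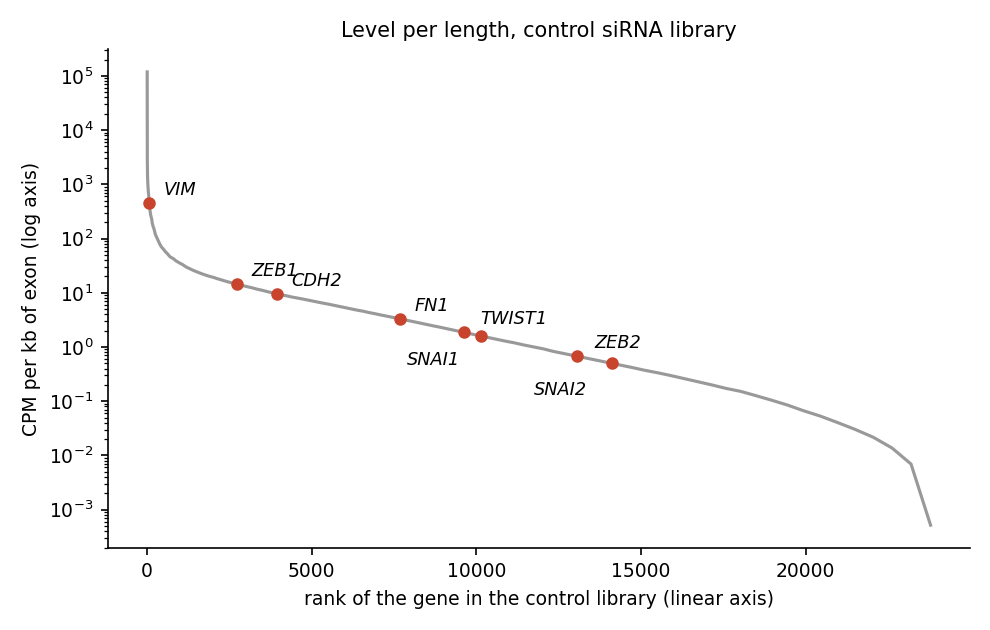
Level of the EMT genes in the control siRNA library as CPM per kilobase of exon (log axis) against the rank of the gene among 24085 genes (linear axis). The grey curve is all genes and the red points are the 8 EMT genes with values. VIM lies at rank 63, and the other 7 are spread from rank 2737 (ZEB1) to rank 14108 (SNAI2).

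FN1 (ENSG00000115414, chromosome 2, 215360440 to 215436172, minus strand on GRCh38), the gene of fibronectin, differed most among the 8 genes. It was 57.2 CPM in the control (3511 reads), 188.7 CPM in si-hnRNPK (10250 reads), 211.1 CPM in si-PTBP1 (11838 reads) and 78.0 CPM in the LBCS-labelled library (5478 reads). The si-hnRNPK and si-PTBP1 libraries were both high, and the other 2 were low. Differences are in log2(CPM + 1), on which low genes appear to differ less than they do. This difference was 1.70 for si-hnRNPK, a ratio of 3.30 (95% counting interval 3.18 to 3.43), and 1.87 for si-PTBP1, a ratio of 3.69 (3.55 to 3.83). For si-lncRNA-LBCS it was 0.44, a ratio of 1.36 (1.31 to 1.42). si-hnRNPK was 2.42 times (2.34 to 2.50) the LBCS-labelled library, so FN1 also stood apart between knockdown libraries, beyond counting error. These intervals come from the reads of each pair of libraries and hold no spread between cultures.

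VIM (ENSG00000026025, chromosome 10), the gene of the main intermediate filament of mesenchymal cells, went the other way. It was 2343 CPM in the control (143831 reads), 1700 CPM in si-hnRNPK, 1647 CPM in si-PTBP1 and 1417 CPM in the LBCS-labelled library. The control was the highest and the 3 knockdown libraries lay between 60.5% and 72.6% of it. The log2 differences were -0.46, -0.51 and -0.72, none of which reached 1 in size. The 3 values share the control library. Set against the LBCS-labelled library instead, VIM was higher by 0.26 in si-hnRNPK and by 0.22 in si-PTBP1.

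CDH2 (ENSG00000170558, chromosome 18), the gene of N-cadherin, was 47.1 CPM in the control, 78.6 CPM in si-hnRNPK, 71.7 CPM in si-PTBP1 and 66.9 CPM in the LBCS-labelled library. Here the control was the lowest, and the 3 knockdown libraries were within 1.10 times of their neighbour in the order. Log2 differences from the control were 0.73 (0.66 to 0.79), 0.60 (0.53 to 0.66) and 0.50 (0.43 to 0.56), below the threshold of 1 in each. Against the LBCS-labelled library they were 0.23 for si-hnRNPK and 0.10 for si-PTBP1.

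**Figure D2:**
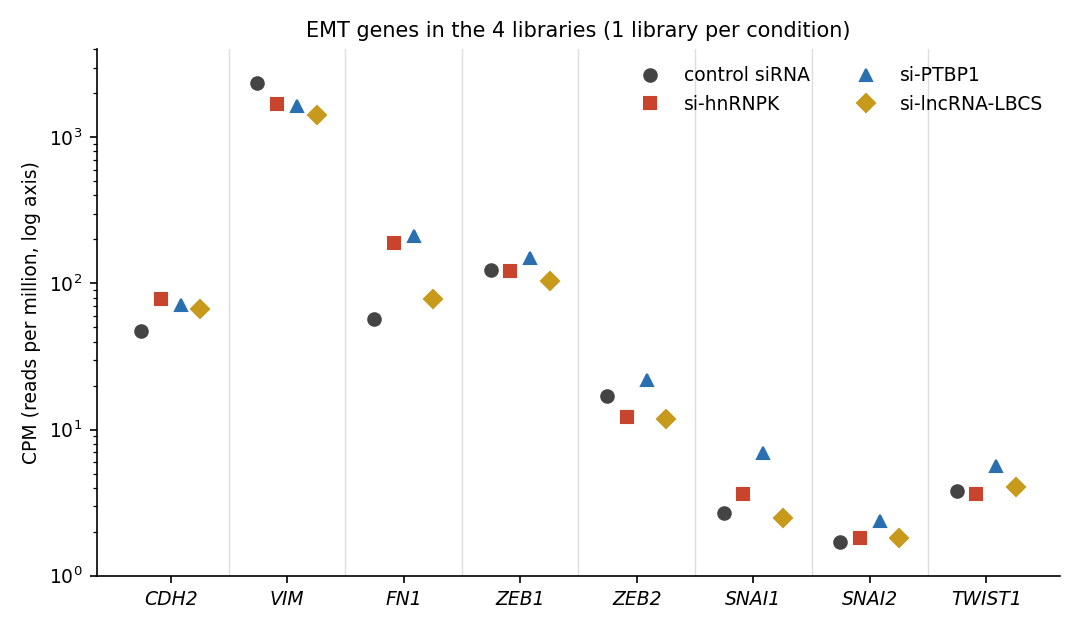
CPM (log axis) of the 8 EMT genes with values in all libraries, 1 point per library and 1 library per condition. FN1 is high in si-hnRNPK (188.7 CPM) and si-PTBP1 (211.1 CPM) against 57.2 CPM in the control, VIM is highest and CDH2 lowest in the control, and SNAI1 is highest in si-PTBP1 (6.92 CPM).

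Among the transcription factors, SNAI1 (ENSG00000124216, chromosome 20), which encodes Snail, had the widest range. It was 2.69 CPM in the control (165 reads), 3.65 CPM in si-hnRNPK (198 reads), 6.92 CPM in si-PTBP1 (388 reads) and 2.49 CPM in the LBCS-labelled library (175 reads). The si-PTBP1 library stood above the other 3, and it was 1.90 times (1.60 to 2.26) the si-hnRNPK library next below. Its log2 difference from the control was 1.10 with a counting interval of 0.89 to 1.31, which crosses the threshold of 1, and the ratio was 2.57 (2.14 to 3.11). In si-hnRNPK the log2 difference was 0.33 (0.10 to 0.56). The control and the LBCS-labelled library were not told apart at this depth, with a ratio of 1.08 (0.87 to 1.34).

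SNAI2 (ENSG00000019549, chromosome 8), which encodes Slug, had the lowest CPM of the 8 without regard to length, at 1.69 CPM in the control, 1.80 CPM in si-hnRNPK, 2.35 CPM in si-PTBP1 and 1.81 CPM in the LBCS-labelled library, from 98 to 132 reads. The first, the second and the last of these were not told apart by counting. The si-PTBP1 library was higher than the control by 0.32 on the log2 scale (0.06 to 0.57).

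ZEB1 (ENSG00000148516, chromosome 10), the most abundant of the 5 factors, was 124.4 CPM in the control, 122.3 CPM in si-hnRNPK, 148.9 CPM in si-PTBP1 and 103.4 CPM in the LBCS-labelled library. The control and si-hnRNPK levels were not told apart, at a log2 difference of -0.02 (-0.07 to 0.02). With 6644 or more reads in every library, that interval is narrow. In si-PTBP1 the difference was 0.26, and in the LBCS-labelled library it was -0.26.

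ZEB2 (ENSG00000169554, chromosome 2), the paralogue of ZEB1, was 16.9 CPM in the control, 12.3 CPM in si-hnRNPK, 22.0 CPM in si-PTBP1 and 11.8 CPM in the LBCS-labelled library. The 2 low libraries are those whose siRNAs have seed matches in the ZEB2 3′ UTR, and they were not told apart from each other (ratio 1.04, 0.94 to 1.16). Their log2 differences from the control were -0.43 (-0.56 to -0.30) and -0.49 (-0.61 to -0.36), and the difference was 0.36 (0.25 to 0.47) in si-PTBP1. Single seed matches elsewhere went with values on either side of the control: -0.26 for ZEB1 in the LBCS-labelled library, 0.06 for SNAI2 in si-hnRNPK, and 0.60 for CDH2 and 1.87 for FN1 in si-PTBP1. The part of the seed matches in these levels was not tested.

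TWIST1 (ENSG00000122691, chromosome 7) was 3.80 CPM in the control, 3.65 CPM in si-hnRNPK, 5.64 CPM in si-PTBP1 and 4.06 CPM in the LBCS-labelled library, from 198 to 316 reads. The si-PTBP1 library was the highest, by 0.47 on the log2 scale over the control (0.26 to 0.67), and the other 3 were not told apart between neighbours among themselves. For all 5 factors the si-PTBP1 library gave the highest value. Of all genes tested, 63.5% were higher in si-PTBP1 than in the control. The share of all genes with their highest value in si-PTBP1 was not computed.

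Read together by library, 1 of the 8 genes passed the threshold in si-hnRNPK (FN1, up) against 7.48% of the 13672 genes tested, of which 3.55% upward and 3.93% downward. 2 of the 8 passed in si-PTBP1 (FN1 and SNAI1, both up) against 3.53% of 13855 genes, of which 2.92% upward and 0.613% downward. None passed in the LBCS-labelled library, against 1.39% of 13492 genes, of which 0.378% upward and 1.01% downward. With 8 genes, a single call is 12.5% of them, so the count in si-hnRNPK cannot be set apart from the background share. In si-PTBP1, SNAI1 lies close to the threshold and its call is lost under median-of-ratios scaling, which leaves 1 call there too. The median log2 difference of the 8 was 0.02 in si-hnRNPK, 0.41 in si-PTBP1 and -0.01 in si-lncRNA-LBCS, beside -0.11, 0.12 and -0.01 over all genes tested. Higher values than the control were found for 4, 7 and 4 of the 8, beside 41.6%, 63.5% and 48.2% of all genes tested.

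The shift of all genes bears on small differences. By the median-of-ratios method over 12362 genes, the bulk of genes lay at -0.11 in si-hnRNPK, 0.13 in si-PTBP1 and -0.01 in si-lncRNA-LBCS relative to the control. Relative to that shift, ZEB1 and TWIST1 in si-hnRNPK turned from just below to just above the control (0.09 and 0.04), and SNAI1 in si-PTBP1 was 0.99, just under the threshold. Over all genes the same scaling moved the calls from 486 up and 537 down to 610 up and 374 down in si-hnRNPK, and from 404 up and 85 down to 256 up and 132 down in si-PTBP1.

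**Figure D3:**
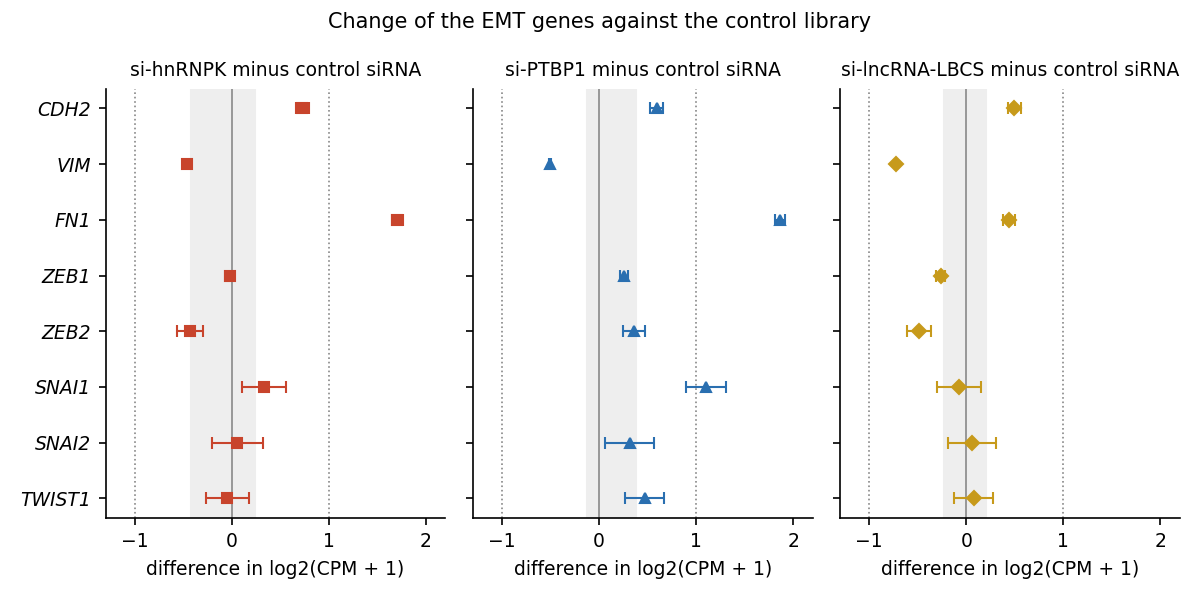
Difference in log2(CPM + 1) from the control siRNA library for the 8 EMT genes in the 3 comparisons. Bars are 95% counting intervals, the grey band spans the middle 50% of all genes tested, and dotted lines mark a difference of 1 in size. FN1 lies beyond 1 in si-hnRNPK (1.70) and si-PTBP1 (1.87), SNAI1 in si-PTBP1 (1.10), and no gene does so in si-lncRNA-LBCS.

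Across the 4 libraries the highest value was 3.69 times the lowest for FN1 and 2.78 times for SNAI1, and between 1.39 times (SNAI2) and 1.87 times (ZEB2) for the other 6. Over 14148 genes this ratio had a median of 1.60 with quartiles of 1.35 and 2.07, so that FN1 and SNAI1 lay above the upper quartile and the other 6 below it. Of the 24 pairs of neighbours in the library order of the 8 genes, 17 were apart by counting error and 7 were not. All 7 were pairs of ZEB1, ZEB2, SNAI1, SNAI2 or TWIST1.

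Lists of related genes follow, and their counts are to be read beside the 7.48%, 3.53% and 1.39% of all genes that passed in si-hnRNPK, si-PTBP1 and si-lncRNA-LBCS. In lists of 4 to 36 tested genes, a single call or none is near those shares and is no result about the list. Some genes are in more than 1 list, so the counts of different lists are not separate from each other. Of 16 tested genes for fibronectin receptors and matrix assembly, 3 rose and 3 fell in si-hnRNPK, 2 rose and 1 fell in si-PTBP1, and 1 rose in si-lncRNA-LBCS, with median log2 differences of 0.05, 0.11 and -0.09. The 6 calls in si-hnRNPK became 2 both against the geometric mean of the other 3 libraries and against the LBCS-labelled library, and the 3 calls in si-PTBP1 became 1 and 0. SDC4, a transmembrane proteoglycan that binds fibronectin, was 200.6 CPM in the control, 620.8 CPM in si-hnRNPK, 200.3 CPM in si-PTBP1 and 222.6 CPM in si-lncRNA-LBCS, a rise of 1.62 in si-hnRNPK. SDC2, a related syndecan, was 16.6 CPM in the control and passed the threshold in every knockdown library, at 36.9, 57.7 and 36.1 CPM in the same order. These calls share the control library. The call in si-lncRNA-LBCS was lost against the geometric mean of the other 3 libraries. The gene of the β1 integrin subunit, ITGB1, was 2088 CPM in the control and 2855, 3192 and 2900 CPM in the knockdown libraries, differences of 0.45, 0.61 and 0.47. ITGA5, which pairs with it as the classical fibronectin receptor, differed by 0.30, -0.52 and -0.34. TNS1, a focal adhesion linker, fell by 1.56 on the log2 scale in si-hnRNPK and by 1.08 in si-PTBP1, and PXN (paxillin) fell by 1.18 in si-hnRNPK. ITGA4, another fibronectin-binding integrin subunit, fell by 1.02 in si-hnRNPK, LTBP1 rose by 1.15 there, and TNS3 rose by 1.24 in si-PTBP1.

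Of 34 other mesenchymal genes tested in si-hnRNPK, 9 rose and 2 fell, and their median was 0.45, above the -0.11 of all genes. Against the geometric mean of the other 3 libraries, 5 rose and 1 fell. The 9 rises include CNN1, which was under 1 CPM in the control and tested only through its level in si-hnRNPK. At a filter of 5 CPM, 7 rose and 2 fell. Among the largest differences, ACTA2 (smooth muscle actin) went from 1.55 to 24.2 CPM, CNN1 (calponin) from 0.23 to 4.44 CPM and CALD1 (caldesmon) from 73.5 to 317.5 CPM. CCN2, a secreted matrix-associated protein, was as high by ratio, at 4.42 times (4.15 to 4.72) beside 4.32 times (4.18 to 4.47) for CALD1. CD44, a hyaluronan receptor, and NT5E, the ecto-nucleotidase CD73, fell by 1.13 and 1.09 on the log2 scale. In si-PTBP1, 6 of 36 rose and 1 fell, with a median of 0.24 against 0.12 for all genes and with 2.92% of all genes up. The 6 rises include CNN1 and POSTN, both tested only through their level in si-PTBP1. At a filter of 5 CPM, 5 rose and 1 fell in si-PTBP1. Median-of-ratios scaling left 3 up and 1 down, and the geometric mean of the other 3 libraries as the reference left 1 up and 1 down. POSTN (periostin, a matrix protein) went from 0.42 to 5.83 CPM, ACTA2 from 1.55 to 9.63 CPM and INHBA (an activin subunit) from 1.87 to 5.44 CPM, while THY1 fell by 1.09. CALD1, by contrast, was 44.2 CPM in si-PTBP1, a difference of -0.72. In the LBCS-labelled library none of 34 rose and 2 fell, among them PLAUR (urokinase receptor) from 202.0 to 88.0 CPM. The fibroblast marker sum was 10.1 CPM in si-PTBP1 against 4.30 CPM in the control, with COL1A1 at 2.25 against 0.41 CPM, and its part in these rises was not tested.

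Among junction and keratin genes the calls were 1, 0 and 1 in the 3 comparisons. Of 16 tested junction and keratin genes in si-hnRNPK, CLDN1 (a tight junction claudin) rose from 4.09 to 23.1 CPM and none fell. In si-PTBP1 none of 18 passed the threshold, and in si-lncRNA-LBCS CLDN1 fell to 1.45 CPM as the only call of 16, which is lost at a filter of 5 CPM. The list medians were -0.03, 0.27 and 0.32. The keratins KRT8 and KRT18, the main ones of simple epithelia, were 63.0 and 121.4 CPM in the control and differed by 0.19 and -0.68 in si-hnRNPK, 0.42 and -0.39 in si-PTBP1, and 0.58 and -0.07 in si-lncRNA-LBCS. Among epithelial transcription and splicing factors, TP63 (p63, a basal epithelial factor) rose from 0.34 to 2.50 CPM in si-hnRNPK and 2.37 CPM in si-PTBP1, and KLF4 rose 2.21 times in si-PTBP1 from 4.99 CPM. TP63, at 0.34 CPM in the control, was tested only in the libraries where it is higher, so these calls are given as values and not as a count. At a filter of 5 CPM the TP63 calls were lost. Median-of-ratios scaling left 1 call in si-PTBP1 where there had been 2, and gave 2 in si-hnRNPK where there had been 1. No gene of this list passed in si-hnRNPK or si-PTBP1 against the geometric mean of the other 3 libraries. ESRP2, an epithelial splicing factor, stayed between 0.29 and 0.85 CPM.

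Of the catenins, which link cadherins to actin, the 3 given next were abundant in every library. CTNNA2, another catenin, had 0 reads in the control, 6 in si-hnRNPK and 11 in si-PTBP1. CDH3 (P-cadherin, an epithelial cadherin) stayed between 0.10 and 0.32 CPM. CTNNA1 (α-catenin), CTNNB1 (β-catenin) and CTNND1 (p120) were 559.8, 320.7 and 143.5 CPM in the control, and none of the 3 passed the threshold in any library. The list gave 1 fall of 10 tested in si-hnRNPK, which was CDH4 (R-cadherin), from 17.7 to 7.77 CPM, a call lost under median-of-ratios scaling. CDH6 (K-cadherin) had 3 reads in the control and 115 in si-PTBP1, a ratio of 42.0 (14.0 to 206.5). It was tested in si-PTBP1 only through its level there, and the call is lost at a filter of 5 CPM. No gene of 10 passed in si-lncRNA-LBCS. CDH11, another mesenchymal cadherin, was 7.19 CPM in the control and 10.2, 13.2 and 11.4 CPM in the 3 knockdown libraries.

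None of the 11, 12 and 11 other EMT-inducing transcription factors tested passed the threshold, beside 7.48%, 3.53% and 1.39% of all genes. SOX9 was 11.9 CPM in the control, 10.1 CPM in si-hnRNPK, 21.1 CPM in si-PTBP1 and 7.28 CPM in si-lncRNA-LBCS, and the E-protein TCF3 was 70.3 CPM in the control and 104.3 to 115.4 CPM in the others. Of 22 genes for partners and turnover of SNAI, TWIST and ZEB proteins, 3 fell in si-hnRNPK and none passed in the other 2 libraries, and against the LBCS-labelled library none passed in si-hnRNPK either. Among those, RCOR1 (the corepressor CoREST) and EZH2 (the histone H3 lysine 27 methyltransferase) fell by 1.27 and 1.16 on the log2 scale. Of 8 tested partners of vimentin filaments, LMNB1 (lamin B1) fell by 1.02 in si-hnRNPK and SYNM (synemin) rose by 1.10 in si-PTBP1. Both calls were lost under median-of-ratios scaling.

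In the TGF-β pathway, a main inducer of EMT, the ligand TGFB1 was 22.8 CPM in the control and 17.9, 25.9 and 17.2 CPM in si-hnRNPK, si-PTBP1 and si-lncRNA-LBCS. Of 22 genes tested, 2 rose and 1 fell in si-hnRNPK, and 1 rose in each of the others. Among the 2 rises is LTBP1, which is also counted in the fibronectin list. None of the 3 calls in si-hnRNPK held against the geometric mean of the other 3 libraries or against the LBCS-labelled library. TGFBR1, the type I receptor, went from 25.3 to 56.5 CPM in si-hnRNPK and 57.5 CPM in si-lncRNA-LBCS, and was 47.8 CPM in si-PTBP1, a difference of 0.89. TGFBR3, the co-receptor betaglycan, fell by 1.08 in si-hnRNPK, and LTBP3, which binds latent TGF-β, rose by 1.11 in si-PTBP1, a call lost under median-of-ratios scaling. SMAD2 and SMAD3, which carry the signal, did not reach the threshold in any library. Of 23 RNA-binding proteins tied to EMT splicing, the calls were the siRNA targets and PTBP2, the neuronal paralogue of PTBP1, which fell by 1.04 in si-hnRNPK and rose by 1.64 in si-PTBP1 (141.2 CPM in the control, 68.2 and 443.0 CPM). Median-of-ratios scaling left 1 of the 2 calls in si-hnRNPK.

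**Figure D4:**
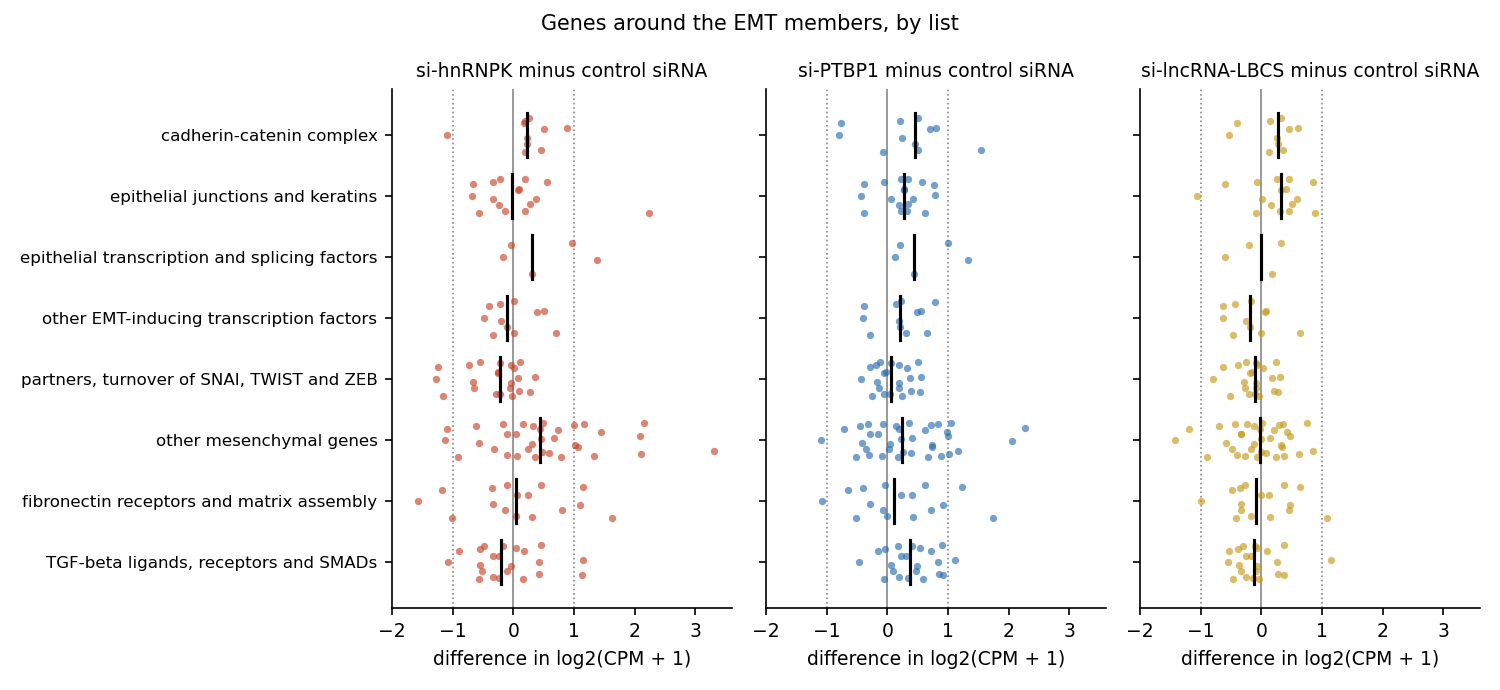
Difference in log2(CPM + 1) from the control siRNA library for 8 lists of genes related to the EMT genes, 1 point per tested gene. Black bars are list medians and dotted lines mark a difference of 1 in size. The other mesenchymal genes have a median of 0.45 in si-hnRNPK with 9 of 34 at or above 1, and the other EMT-inducing transcription factors have none beyond 1 in any comparison. The 9 include CNN1, which was under 1 CPM in the control.

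RNAs that overlap or neighbour the EMT genes gave no call among the 4 or 5 tested. VIM-AS1, which overlaps VIM in antisense, was 5.54 CPM in the control against 2343 CPM of VIM, and ZEB1-AS1 was 2.05 CPM in the control and 2.95 to 3.68 CPM in the others. Whether the counting used strand is not given in the sources used here, so reads of VIM, ZEB1 and ZEB2 and of their antisense partners cannot be told apart where they overlap.

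Likeness to FN1 over the 4 libraries was taken as the Euclidean distance of log2(CPM + 1) centred on each gene's mean. Searched were 9452 genes at 10 CPM or more in their highest library. The genes most like FN1 were ROBO2 (distance 0.44), BCHE (0.47) and DCBLD2 (0.47). ROBO2, a receptor for Slit ligands, was 27.4 CPM in the control, 69.2 CPM in si-hnRNPK, 93.3 CPM in si-PTBP1 and 43.5 CPM in si-lncRNA-LBCS. BCHE (butyrylcholinesterase) was 9.43, 26.3, 31.3 and 16.3 CPM in the same order, and DCBLD2, a transmembrane protein, was 19.0, 51.3, 46.9 and 24.9 CPM. Likeness over 4 libraries is a description.

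RefSeq promoters (GRCh38.p14, the 250 bases before each start) were matched for 5 of the 10 genes, CDH2, VIM, FN1, ZEB1 and ZEB2, with 12 promoters in all. The stretch below is shown because FN1 is the gene with the largest difference. Its promoter held the cAMP response element TGACGTCA, which reads the same on both strands, in capitals here.
FN1, chr2:215436234-215436261, minus strand: cagtcccccgTGACGTCAcccggagccc

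Of all 35116 promoters, 1.65% held this element, and no other of the 12 did. The FN1 promoter was 76.4% G and C, beside a median of 58% over all promoters. The E-box CACCTG (on the other strand CAGGTG) was found in 2 of the 12, both of ZEB1, and in 17.5% of all promoters, and the C-run CCCCC (on the other strand GGGGG) in 9 of the 12 and 55.3% of all. These matches describe letters only.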

How the data were processed

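RNA-seq of UM-UC-3 cells (4 libraries, 1 per condition, 100-base paired-end reads) was analysed. The authors deposited CPM per Ensembl gene, 1 table per library. The build hg19 is named in the submitters' processing notes, and the aligner, the counter and the annotation are not given in the sources used here. CPM values were whole multiples of 1 read (within 0.01 of a read) for 100% of genes with reads, which gave the reads. A count model was not fitted, since no condition has a second library.

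The log2(CPM + 1) of 2 libraries was subtracted. Genes under 1 CPM in both were left out, and a difference was called at 1 or more in size. A gene without a row in one of the tables was left out of that comparison. A missing row gives no level. Counting intervals (95%) were computed by the exact Clopper-Pearson method from the reads and hold counting error only. Symbols, lengths, 3′ UTRs and positions are from GENCODE release 29 (GRCh38), matched by identifier. The members and gene lists were chosen with earlier results of these data known. Named genes are all members, the siRNA targets, up to 3 rises and 3 falls per list past the threshold and the 3 genes most like FN1. CCN2, which was past the threshold in si-hnRNPK but outside the 3 largest rises of its list, was named in addition. Genes of the lists given with values below the threshold (such as ITGB1, KRT8, SOX9, TGFB1 and the catenins) were chosen after their values were seen. Some genes that this rule names are not reported here. Scripts were tested on simulated data. Tools were scipy 1.17.1, pandas 2.3.3, numpy 2.4.6 and matplotlib 3.10.9 under Python 3.11.15.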

Additional observations from a re-analysis of the deposited data

How the results depend on the processing

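No paired analysis was possible because each condition has 1 library and the labels give no replicate numbers. Of 129 recomputed differences of the EMT genes, 12 changed sign and none of those was past the threshold. The 129 include 24 without a filter and 17 at a filter of 5 CPM, which keep the main value by construction. A pseudocount cannot change a sign either. All 12 changes of sign came under median-of-ratios scaling or with another reference. FN1 stayed between 0.94 and 1.82 in si-hnRNPK and between 1.15 and 1.88 in si-PTBP1, and SNAI1 in si-PTBP1 between 0.99 and 1.33. The number of EMT genes called in si-hnRNPK was 1 in the main analysis, 2 at a threshold of 1.5-fold (CDH2 added) and 0 against the geometric mean of the other 3 libraries, a reference that includes si-PTBP1 and against which FN1 is 0.94. In si-PTBP1 it went from 2 to 1 under median-of-ratios scaling (SNAI1 lost), and in si-lncRNA-LBCS from 0 to 1 at 1.5-fold (VIM, down). With the library labelled si-lncRNA-LBCS as the reference, an alternative chosen after seeing the data, FN1 in both libraries and SNAI1 in si-PTBP1 kept their calls. FN1 in si-lncRNA-LBCS was -0.75 against the geometric mean.

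Totals of calls over all genes moved by more than 1.5 times in at least one comparison under 3 settings. With a pseudocount of 0.1 they were 790 up and 995 down in si-hnRNPK, 793 and 173 in si-PTBP1, and 165 and 353 in si-lncRNA-LBCS, against 486 and 537, 404 and 85, and 51 and 136. At 1.5-fold they were 1352 and 2165, 1673 and 432, and 559 and 774, and against the geometric mean 317 and 356, 234 and 68, and 6 and 97. Counts of 1 direction also moved by more than 1.5 times in si-PTBP1 under median-of-ratios scaling (256 up, 132 down) and, against the library labelled si-lncRNA-LBCS, in the downward calls of si-hnRNPK (339) and si-PTBP1 (50). An exact binomial test of the reads, which compares 2 libraries and not conditions, passed 79.7%, 73.8% and 70.5% of genes at a q of 0.05 and removed no call. At this depth a difference past the threshold passes that test in any case, so this outcome adds nothing to the calls. SNAI1, SNAI2 and TWIST1 rest on 98 to 388 reads, which limits small differences.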
